A study of Mus musculus with 20 samples.

Results

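Chromatin accessibility was followed at 5 late pluripotency genes of the mouse, Dppa5a, Dppa2, Dppa4, Zfp42 (which encodes REX1) and Utf1, in MEFs on their way to iPSCs and in ESCs. All peaks within 10 kb of the 5 annotated gene spans were taken from the peak lists of the 20 libraries, and peaks sharing at least 1 bp were joined into elements. This gave 195 of the 1582423 peaks and 43 of the 335858 merged regions of the series. An element within 2 kb of an annotated start site of its gene was called a promoter element (16 elements) and any other a distal element (27 elements), and 4 elements belong to the windows of both Dppa2 and Dppa4, which are neighbours.

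ATAC-seq, in which Tn5 transposase inserts adapters into accessible DNA, was performed on MEFs (1 library), on ESCs (3 libraries, ESC-1 to ESC-3 by their replicate numbers) and on MEFs that received Oct4 together with Nanog or with NanogN70 at 8 times of induction, namely days 0, 1, 3 and 5, days 7 and 8, and days 10 and 12 (1 library per time and factor pair). NanogN70, the NanogBiD of the study, is NANOG carrying at its N-terminus the part of SS18 that binds BRG1, the ATPase of the BAF remodeling complex. Both factors of a pair were delivered by retroviral vectors to MEFs with an Oct4-GFP reporter, day 0 followed the infections, and the reprogramming medium was replaced by N2B27 with 2i and LIF for the later days. The cells were not sorted as far as the sources used here say, so in these mixed populations fewer cells with an open element and a smaller opening per cell cannot be told apart.

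Dppa2 and Dppa4 are neighbouring genes for small nuclear proteins with a SAP domain that bind CpG-rich promoters and help set up bivalent chromatin in the early embryo. Dppa5a encodes an RNA-binding protein with a KH domain, Zfp42 a zinc finger protein related to YY1 that is a standard marker of naive pluripotent cells, and Utf1 a chromatin-associated factor of the early embryo that is regulated by OCT4 and SOX2 through an enhancer just downstream of the gene. All are silent in fibroblasts and are commonly counted among the genes that come on late in reprogramming, which is why their elements are of interest as a readout of the last steps.

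In GENCODE M21 on GRCm38 (the assembly called mm10), Dppa5a lies at chr9:78367052-78368177 on the minus strand, Dppa2 at chr16:48303908-48319723 and Dppa4 at chr16:48283733-48294237 on the plus strand, Zfp42 at chr8:43295063-43306980 on the minus strand, and Utf1 at chr7:139943789-139945112 on the plus strand. Elements are named here by the gene and by the distance of their strongest summit from the nearest annotated start of that gene, with downstream positive.

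The sequences below were read from RefSeq's GRCm38.p6 assembly and are printed 5′ to 3′ on the strand of the gene. They are the RefSeq promoters of Zfp42 and Utf1, the 2 of the 5 genes with an entry in the promoter table used, and windows of 151 bp centred on the strongest ESC summit of 5 elements that differed in when they were open. The Zfp42 promoter covers the 250 bases before the RefSeq start, and the Utf1 promoter the first 183 of those bases, which end at the annotated start. Capitals mark exact matches, on either strand, to 6 short motifs: the OCT octamer ATGCAAAT, its variant ATGCTAGT, the SOX core CATTGT, the KLF box GGGNGTGG, the ESRRB core AAGGTCA and the AP-1 site TGANTCA.
Zfp42 promoter, chr8:43307010-43307259, minus strand: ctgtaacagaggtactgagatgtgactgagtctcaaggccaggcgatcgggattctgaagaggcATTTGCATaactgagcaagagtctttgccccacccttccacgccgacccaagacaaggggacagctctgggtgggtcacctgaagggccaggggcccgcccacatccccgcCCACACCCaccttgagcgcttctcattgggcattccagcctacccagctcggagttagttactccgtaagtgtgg
Utf1 promoter, chr7:139943606-139943788, plus strand: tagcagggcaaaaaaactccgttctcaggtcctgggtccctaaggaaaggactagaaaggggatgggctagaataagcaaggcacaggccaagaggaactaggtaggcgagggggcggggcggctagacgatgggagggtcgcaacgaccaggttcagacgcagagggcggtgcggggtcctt
Utf1 +1.9 kb element, chr7:139945576-139945726, plus strand: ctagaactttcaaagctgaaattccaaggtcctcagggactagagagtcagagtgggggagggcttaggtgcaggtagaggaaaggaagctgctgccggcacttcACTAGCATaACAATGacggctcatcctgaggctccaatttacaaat
Dppa5a −0.1 kb promoter element, chr9:78368198-78368348, minus strand: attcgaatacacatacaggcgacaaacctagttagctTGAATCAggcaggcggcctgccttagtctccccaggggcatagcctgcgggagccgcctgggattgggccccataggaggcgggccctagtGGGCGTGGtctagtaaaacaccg
Dppa5a +3.2 kb element, chr9:78364870-78365020, minus strand: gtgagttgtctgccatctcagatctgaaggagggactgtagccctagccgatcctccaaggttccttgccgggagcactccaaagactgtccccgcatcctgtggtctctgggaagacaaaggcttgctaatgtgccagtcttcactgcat
Dppa2 −1.4 kb element, chr16:48309043-48309193, plus strand: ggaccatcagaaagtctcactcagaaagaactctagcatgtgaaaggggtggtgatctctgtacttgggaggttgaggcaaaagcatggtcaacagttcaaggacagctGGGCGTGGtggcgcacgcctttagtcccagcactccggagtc
Zfp42 +1.1 kb element, chr8:43305760-43305910, minus strand: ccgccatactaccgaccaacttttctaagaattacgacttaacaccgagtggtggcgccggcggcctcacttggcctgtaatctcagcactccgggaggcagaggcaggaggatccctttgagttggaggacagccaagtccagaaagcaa

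The Zfp42 promoter held the OCT octamer at 186 bases and a KLF box at 75 bases before the RefSeq start, and the Utf1 promoter held none of the 6 motifs. The OCT octamer occurred in 1.60% and the KLF box in 15.9% of the 32841 RefSeq promoters of the same length. The Utf1 +1.9 kb window lies just past the 3′ end of the gene, where the Utf1 enhancer is known, and it carried the variant octamer and the SOX core on the minus strand with 1 base between them. The variant octamer was found in 0.343% and the SOX core in 10.4% of the windows around all 55423 ESC-only summits with sequence, ESC-only being defined below. The Dppa5a promoter window held an AP-1 site and a KLF box, the Dppa2 −1.4 kb window held a KLF box, and the windows at Dppa5a +3.2 kb and Zfp42 +1.1 kb held none. Over the 23 ESC-only windows of the 5 loci, the OCT octamer was found in 0 (2.34% of all ESC-only windows), the variant octamer in 2, SOX in 3, KLF in 4 (12.2%), the ESRRB core in 1 (4.64%) and AP-1 in 1 (4.70%). The Utf1 promoter had 14 CpGs in the full 250 bases and the Zfp42 promoter 9, against a median of 6 over all RefSeq promoters. These matches describe the letters and not binding.

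Scores and pileups are used throughout. The authors' peak score is the MACS p-value on a −log10 scale multiplied by 10, with a minimum of 50, and the summit pileup is the number of tags over the highest point of a peak, which is not corrected for depth. The scaled pileup is the highest summit pileup of a library in an element divided by the median of that quantity over the 14217 regions that had a peak in all 20 libraries, so that 1 stands for a typical always-open region of the same library. Where a library has no peak the scaled pileup was set to 0, which means below detection and not closed.

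Read totals are not in the peak lists, so depth is unknown and had to be judged from the peaks. The time course libraries had 44126 to 107038 peaks, against 97450 to 116006 in ESCs and 125467 in MEFs, and the median pileup at the always-open regions was 16 to 60 in the time course, 29 to 38 in ESCs and 39 in MEFs. The weakest peaks, with scores under 60, had a median pileup of 5 to 7 in the time course libraries, or 0.10 to 0.31 on the scaled measure. The 3 ESC libraries had a peak at 8 of 8 ESC marker promoters and the MEF library at 5. The MEF library had one at 8 of 8 fibroblast markers and the ESC libraries at 6 to 7. The labels thus show in the summed scaled pileups rather than in the counts. These were 7.87 for the fibroblast list in MEFs and 1.93 to 2.59 in ESCs, and 1.59 for the ESC list in MEFs and 7.75 to 9.28 in ESCs. In the time course the ESC list, which holds Nanog, reached 33.6 on Nanog day 0 and 17 on NanogN70 day 0. The part of the Nanog vectors in these sums was not tested. The NanogN70 day 3 library stood apart, with peaks at 10 of 10 T lymphocyte promoters (summed scaled pileup 12.8) and 5 of 5 general leukocyte promoters (4.68), where the other 15 time course libraries had 1 to 4 and 1 to 3 of them (0.75 to 1.65 and 0.65 to 1.61) and the ESC libraries 7 and 3 to 4 (2.72 to 3.00 and 1.69 to 2.18).

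To define what each locus has to gain, those without a MEF peak and with a peak in 2 or 3 ESC libraries were called ESC-only. There were 23 such elements among the 43 (53.5%, against 16.5% of all merged regions), 11 at promoters and 12 distal, and 20 of them had a peak in all 3 ESC libraries. The 11 promoter elements had ESC mean scaled pileups of 0.34 to 2.02 with a median of 1.06, and the 12 distal elements 0.19 to 1.00 with a median of 0.36. The strongest was the Zfp42 promoter, at the 99.9th percentile of all ESC-only regions, followed by Zfp42 +1.1 kb (99.2), the Dppa5a promoter (98.7) and the Dppa2 promoter (98.6). Of the other elements, 5 had a MEF peak and 14 were seen in a single library. The map of peaks shows 3 loci, Dppa2, Dppa4 and Zfp42, that were filled almost only in ESCs, and 2, Dppa5a and Utf1, with peaks in each of the 20 libraries.

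**Figure D1:**
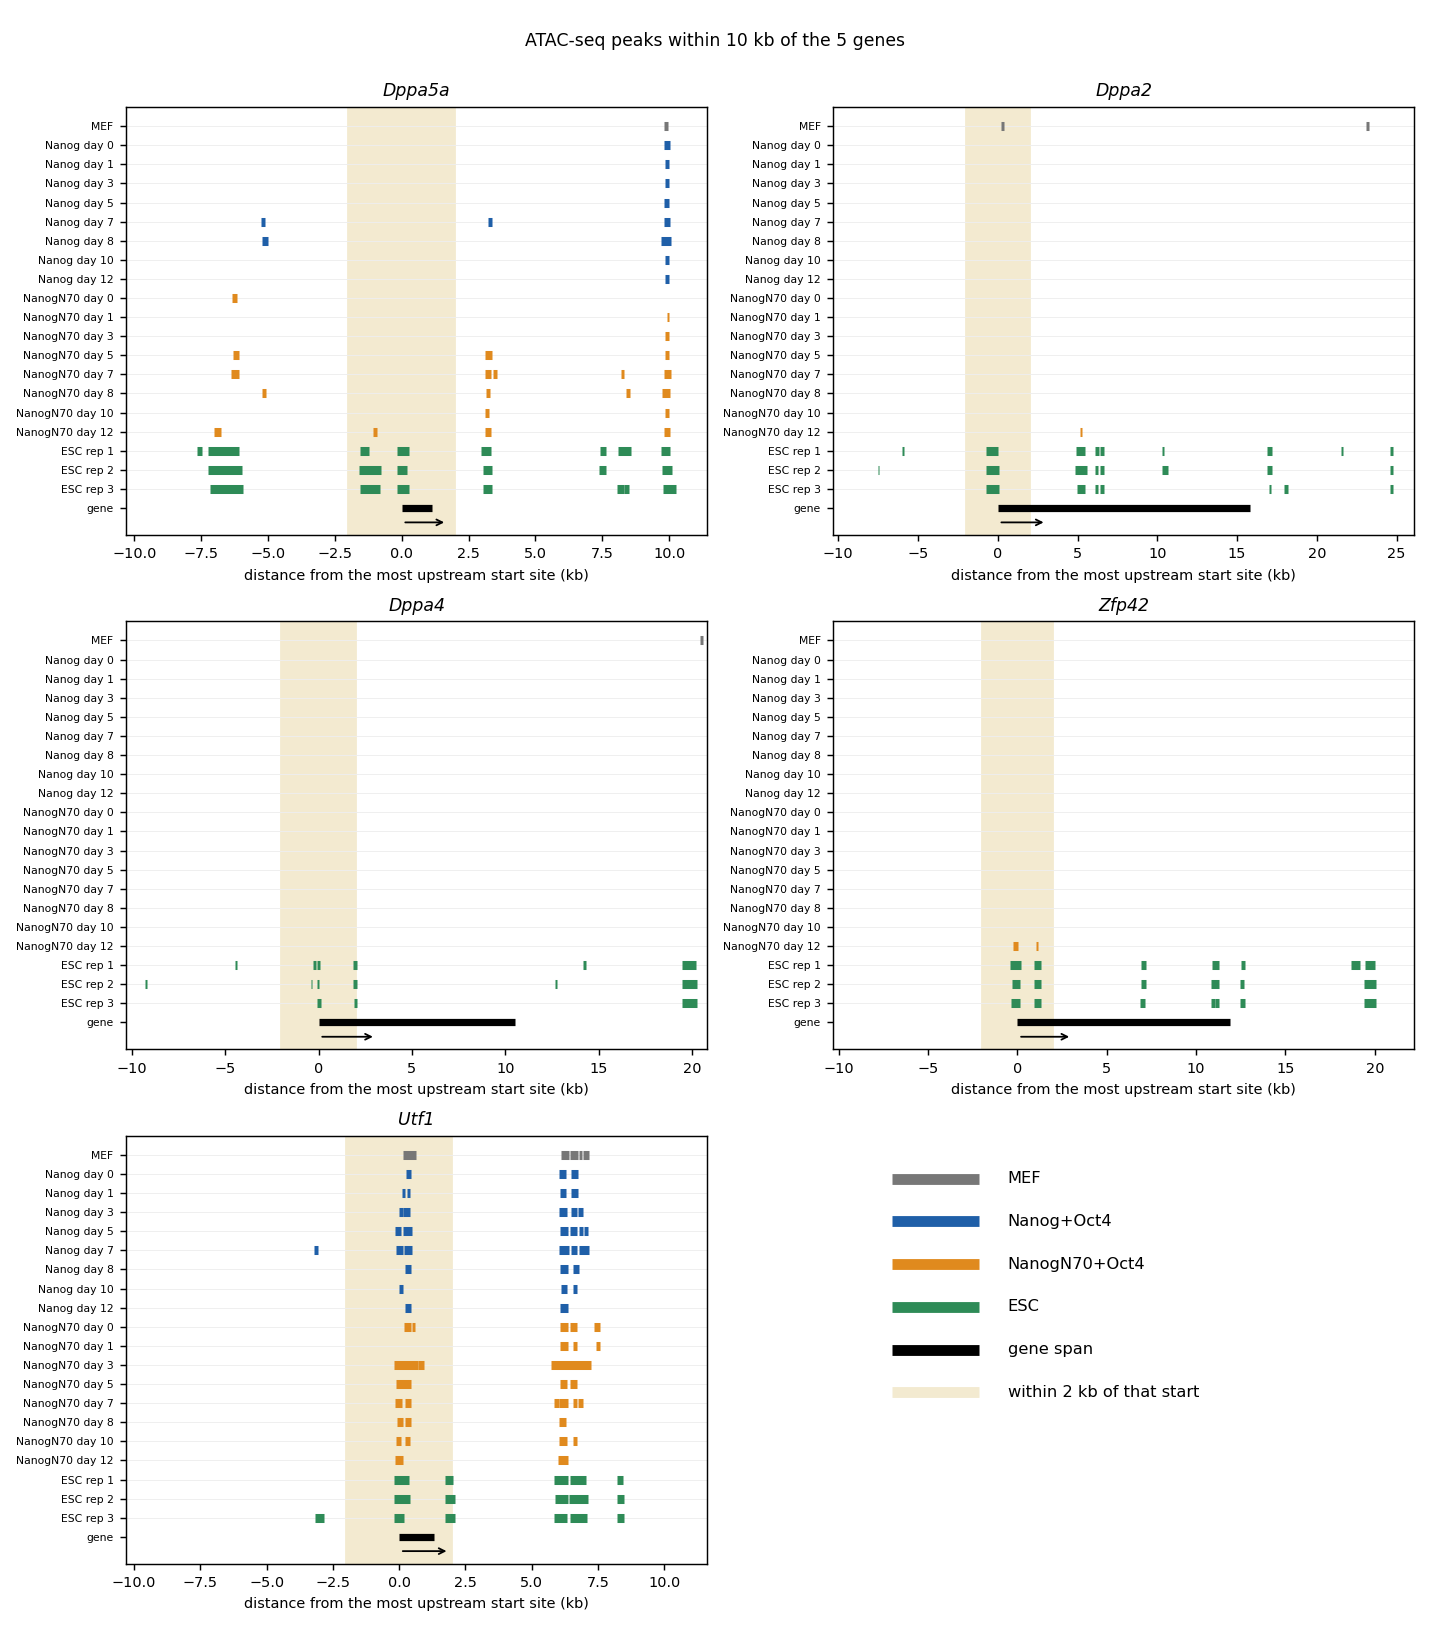
Peaks within 10 kb of the 5 genes, by distance in kb from the most upstream start site (x axis) and library (y axis), with MEF in grey, Nanog+Oct4 in blue, NanogN70+Oct4 in orange, ESC in green and the gene in black with an arrow for its direction. Dppa2, Dppa4 and Zfp42 had time course peaks on NanogN70 day 12 alone or not at all, and Dppa5a and Utf1 had peaks in all 20 libraries.

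To ask how much of this ESC pattern was reached, the 23 ESC-only elements were counted in each time course library. With Nanog, 1 element had a peak on 1 or more days (4.35%, against 17.3% of all 55446 ESC-only regions), and it did so on day 7 alone. With NanogN70, 7 elements did (30.4%, against 30.8%), and 16 elements had a peak in no time course library (69.6%, against 66.1%). The share reached with NanogN70 was near that of ESC-only regions in general in the lists as deposited. When each library was cut to an equal number of best-scoring peaks, it was 4 of the 13 elements still ESC-only (30.8%), below the 48.6% of all ESC-only regions. With a score of at least 100 it was 4 of 18 (22.2%, against 28.3%). By day, the number with a NanogN70 peak was 1 on day 0, 0 on days 1 and 3, 2 on day 5, 3 on day 7, 2 on day 8, 1 on day 10 and 6 on day 12. Over all ESC-only regions the NanogN70 share was highest on day 7, at 15.4% (13.0% of the 23 elements). It was 11.2% on day 3, in the library with the T lymphocyte and leukocyte promoter peaks, where none of the 23 had a peak. Day 12 was the only day with more than 3 elements, at 26.1% of the 23 against 14.2% of all ESC-only regions. With equal peak numbers this excess on day 12 was gone, at 4 of 13 (30.8%) against 32.4%. With a score of at least 100 it remained, at 4 of 18 (22.2%) against 12.7%. The Nanog day 12 library had 0 of 23 against 5.87%.

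**Figure D2:**
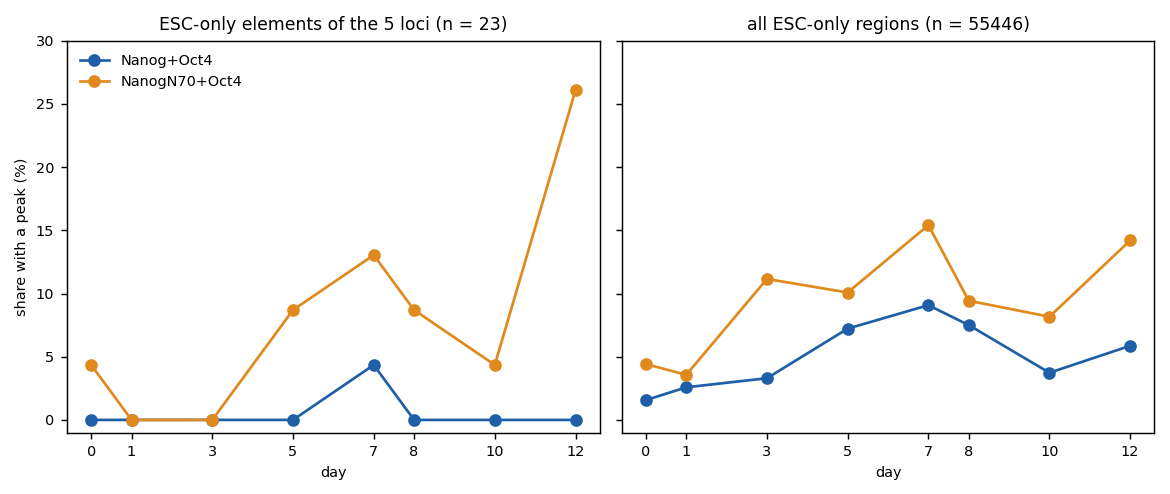
Share of ESC-only elements with a peak in each time course library (y axis, %) by day (x axis), for the 23 elements of the 5 loci on the left and all 55446 ESC-only regions on the right, with 1 library per point. The 5 loci stood at 0% on 7 of 8 days with Nanog and reached 26.1% on NanogN70 day 12.

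Distal and promoter elements are given apart. Among the 12 distal elements, 3 had a NanogN70 peak (25%, against 29.6% of all ESC-only distal regions) and 1 a Nanog peak (8.33%, against 16.4%). All 3 were near Dppa5a and were first seen between day 0 and day 7. Among the 11 promoter elements, 4 had a peak on 1 or more NanogN70 days (36.4%, against 39.4% of all ESC-only promoter regions) and 0 on any Nanog day (against 23.5%), and all 4 had it on day 12 alone. These 4 were Dppa5a −1.4 kb, Dppa2 −1.4 kb, Zfp42 +1.1 kb and the Zfp42 promoter itself. Without the NanogN70 day 12 library, 3 ESC-only elements and 0 promoter elements had a NanogN70 peak, so the promoter count rested on this 1 library. The promoter count fell to 1 with a score of at least 100 and to 1 with equal peak numbers. Only the Zfp42 promoter peak was well above the weakest peaks. The day 12 scaled pileups were 0.17 at Dppa5a −1.4 kb and Zfp42 +1.1 kb and 0.20 at Dppa2 −1.4 kb. They were lower than the median of the weakest peaks in 11, 11 and 10 of the other 15 time course libraries. Openings of that size could thus have been missed on the other days, although peaks below that median were also called. An example is Dppa5a +3.2 kb on NanogN70 day 10 (0.179 against 0.214). Together with Dppa5a −6.9 kb, 5 elements had a peak on NanogN70 day 12 and on no Nanog day (21.7%, against 6.65% of all ESC-only regions). Among them, Dppa5a −1.4 kb, Dppa2 −1.4 kb and Zfp42 +1.1 kb had day 12 scores of 56.3 to 62.6. Those peaks were lost with a score of at least 100 and with equal peak numbers. The median pileup at always-open regions was 41 on NanogN70 day 12 and 24 on Nanog day 12. ESC-only elements with a peak on at least 2 more days in one path numbered 3 for NanogN70 (13.0%, against 10.8%), all at Dppa5a, and 0 for Nanog (against 1.91%). Counted over days, the 23 elements had a peak in 15 of 184 element-day pairs with NanogN70 (8.15%, against a mean over days of 9.55% for all ESC-only regions), of which 12 were at Dppa5a, and in 1 with Nanog (0.543%, against 5.10%).

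Zfp42 showed the plainest late opening. At its promoter (chr8:43306788-43307390, from 410 bp upstream of the start to 193 bp into the gene, with the summit upstream) the summit pileup was 59, 91 and 53 in ESC-1 to ESC-3 and 23 on NanogN70 day 12, and no other library had a peak. On the scaled measure the day 12 value was 0.56, or 27.7% of the ESC mean of 2.02 ± 0.32 (SD, n = 3), with a score of 356 against 1038 to 1697 in ESCs, and its summit lay 15 bp from that of the strongest ESC peak. The weakest peaks of the time course libraries had pileups equal to 4.95% to 15.4% of the ESC mean at this promoter, so signal much above that range would ordinarily have been called on the other days. The intronic element at +1.1 kb (chr8:43305635-43306049) followed with pileups of 41, 54 and 41 in ESCs and 7 on NanogN70 day 12, where its score of 62.6 was close to the minimum. The other 4 ESC-only elements of the locus, at +7.0, +10.9, +12.6 and +19.8 kb, had peaks in ESCs alone. One of them, at +10.9 kb, lies in a coding exon of Zfp42.

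Dppa2 was reached at a single element and Dppa4 at none. The Dppa2 promoter (−0.3 kb, chr16:48303176-48304003) had pileups of 39, 45 and 37 in ESCs with scores of 798 to 1005, and no peak in the 16 time course libraries or in MEFs. The gained element lies in an intron of Dppa2, 1.4 kb before the second annotated start (chr16:48308775-48309490), with pileups of 32, 47 and 28 in ESCs and 8 on NanogN70 day 12. That day 12 peak had a score of 60.5 and 18.3% of the ESC mean scaled pileup, and its summit coincided with the strongest ESC summit. Beside the same start, elements at −0.4 kb (21, 26 and 23 in ESCs) and −0.1 kb (23, 27 and 18) had peaks in no other library, as was true of the 3 distal ESC-only elements at +3.8, +10.5 and +18.1 kb. MEFs had a peak of their own at +0.3 kb in the 5′ UTR, with a pileup of 9, that no other library shared.

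At Dppa4, the promoter element (chr16:48283630-48283866) had pileups of 25, 21 and 21 in ESCs and the intronic element at +1.9 kb had 15, 10 and 8, and neither had a peak elsewhere. The third ESC-only element in its window is the Dppa2 promoter, 19.9 kb away. Of the 5 most upstream starts that of Dppa4 was the least accessible in ESCs, with a mean scaled pileup of 0.69 ± 0.12 (SD, n = 3), and the weakest time course peaks would be 14.6% to 45.6% of it. A small opening at Dppa4 was therefore less detectable than one at Zfp42.

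**Figure D3:**
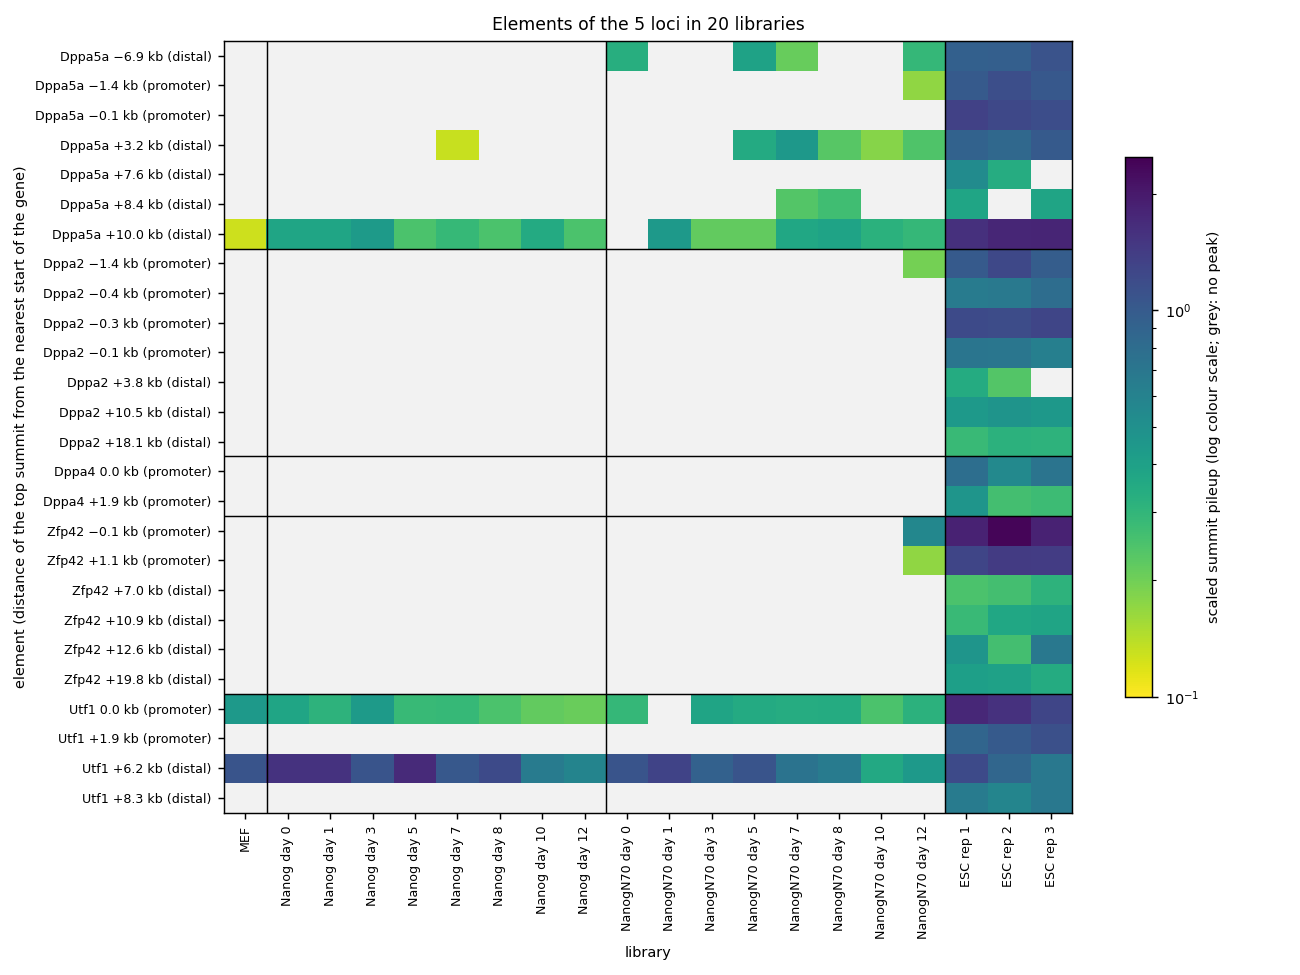
Scaled summit pileup (colour, log scale, grey for no peak) of each ESC-only element, and of the other elements open in all 3 ESC libraries at promoters or on all 8 Nanog days, in the 20 libraries (columns). The NanogN70 day 12 column holds 6 of the 23 ESC-only elements and the Nanog columns hold 1 in all.

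Among ESC-only elements, those of Dppa5a had more open element-day pairs than those of the other 4 loci, nearly all at distal elements. Its promoter (−0.1 kb, chr9:78367896-78368356) had pileups of 43, 47 and 34 in ESCs and no peak elsewhere. The intergenic element at +3.2 kb, beyond the 3′ end of the gene (chr9:78364780-78365197), had pileups of 29, 32 and 29 in ESCs, of 8, 17, 6, 5 and 10 on NanogN70 days 5, 7, 8, 10 and 12, and of 5 on Nanog day 7. NanogN70 thus kept a peak there on every library day from day 5 on, at 19.5% to 48.8% of the ESC mean scaled pileup. The lone Nanog peak was at 14.4%. The scores on NanogN70 days 8 and 10 (59.8 and 56.1) and on Nanog day 7 (60.1) were close to the minimum. With a score of at least 100, the difference between the paths was 3 days. Averaged over the 8 days, the scaled pileup was 0.18 for NanogN70 against 0.016 for Nanog (difference 0.16). By the two-sided exact permutation test that flips the signs of the daily differences in every combination, the p was 0.125 for days with a peak and 0.0625 for the scaled pileup (1 and 0.90 after Benjamini-Hochberg adjustment over 233354 regions). Since the paths differed on 5 days in scaled pileup and on 4 in peak presence, each time with NanogN70 higher, these are the smallest p the test could give here, and it could not have passed 0.05.

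The element at −6.9 kb (chr9:78374105-78375430, intergenic) had pileups of 30, 36 and 32 in ESCs and of 8, 9, 8 and 12 on NanogN70 days 0, 5, 7 and 12, with no Nanog peak on any day. Its early and late peaks were in different places. The summits of days 0, 5 and 7 lay 626 to 690 bp from the strongest ESC summit, towards the gene, although inside the region that the ESC peaks covered, and that of day 12 lay 53 bp from it. The difference of 4 days gave p = 0.125 in the exact permutation test (adjusted p = 1), which is again the smallest p that 4 differing days allow. The peak at −1.4 kb on NanogN70 day 12 was also shifted, with a summit 323 bp from the ESC summit, a pileup of 7 against 32, 44 and 30 in ESCs, and a score of 56.3. At +8.4 kb, NanogN70 days 7 and 8 had pileups of 9 and 7 beside 12 and 11 in ESC-1 and ESC-3, and +7.6 kb was open in ESC-1 and ESC-2 alone.

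The strongest ESC element of the Dppa5a locus, at +10.0 kb (chr9:78357932-78358481, intergenic), was open almost throughout. Its pileup was 5 in MEFs and 51, 67 and 52 in ESCs, it was 6, 6, 10, 7, 11, 8, 8 and 6 on the 8 Nanog days, and it was 7, 13, 5, 14, 10, 9 and 12 on NanogN70 days 1 to 12, with no peak on day 0. Both paths stayed far under ESCs, at 14.6% to 25.3% of the ESC mean scaled pileup with Nanog and at no more than 25.5% with NanogN70, against 7.47% in MEFs. The 2 paths overlapped, and their difference of −0.042 in mean scaled pileup (NanogN70 minus Nanog) gave p = 0.555 in the exact permutation test and changed sign with the scaling used. The summits of the time course libraries lay within 8 bp of the ESC summit, except on Nanog day 7, where the distance was 78 bp.

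**Figure D4:**
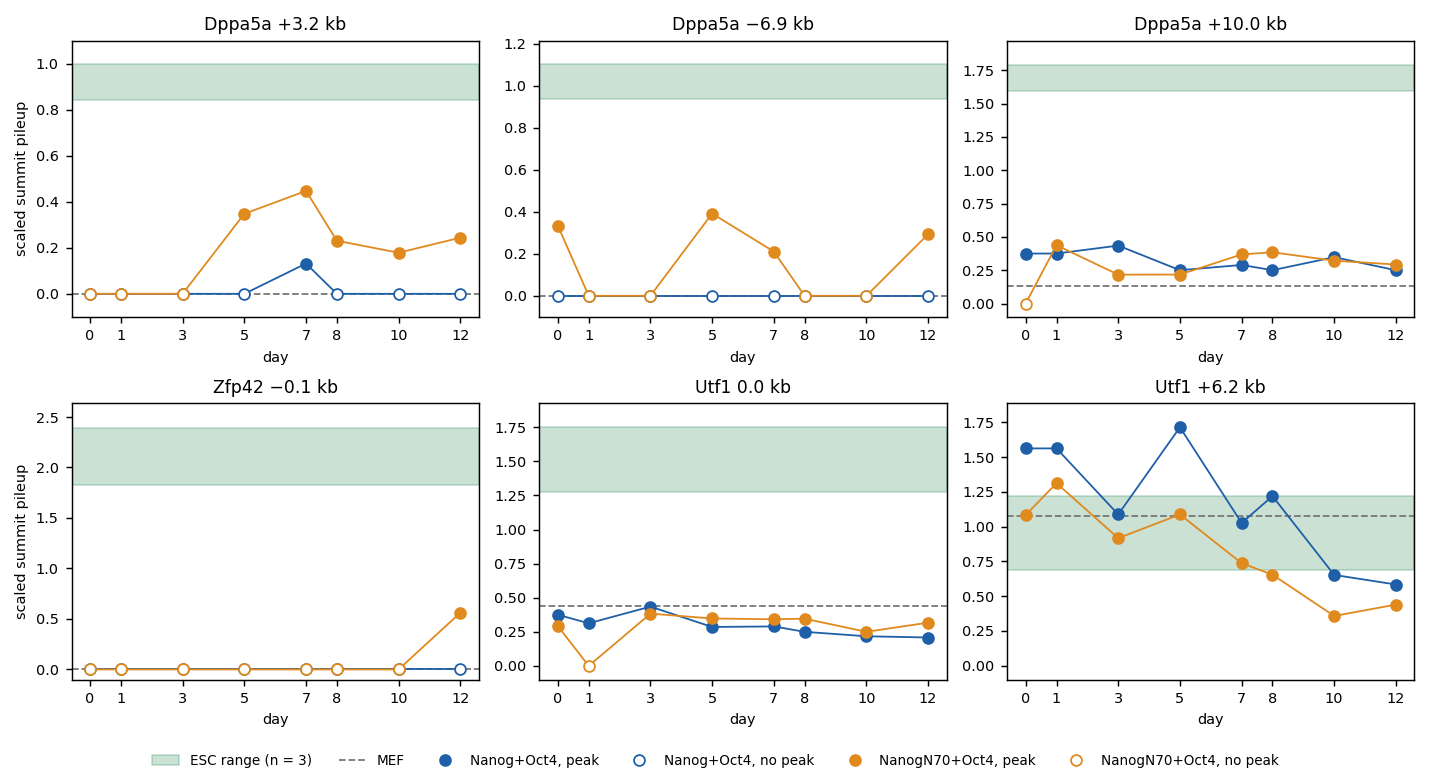
Scaled summit pileup (y axis) by day (x axis) at 6 elements, with Nanog+Oct4 in blue and NanogN70+Oct4 in orange, 1 library per point, open circles at 0 for no peak, the MEF value as a dashed line and the range of the 3 ESC libraries as a green band. At Dppa5a +3.2 kb the NanogN70 libraries lay above the Nanog libraries from day 5 (exact permutation p = 0.0625, the smallest possible there), the Zfp42 promoter had a peak on NanogN70 day 12 alone, and at the Utf1 promoter both paths lay under the ESC range on all days.

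Utf1 differed from the other loci in having a peak beside its start in nearly all time course libraries. It also had one in MEFs, as Dppa2 did. In MEFs and on days 0 and 1 every peak beside the Utf1 start lay inside the gene. The start site itself was covered in 0 of 1 MEF, 3 of 3 ESC, 4 of 8 Nanog and 6 of 8 NanogN70 libraries. With NanogN70 it was covered on every library day from day 3 on. With Nanog it was covered on days 3, 5, 7 and 10 but not on days 8 and 12. The promoter element (chr7:139943596-139944490, over the start and into the gene) had a pileup of 17 in MEFs and 56, 60 and 37 in ESCs. With Nanog it was 6, 5, 10, 8, 11, 8, 5 and 5 on the 8 days, and with NanogN70 it was 7 on day 0, without a peak on day 1, and 23, 8, 13, 9, 7 and 13 on days 3 to 12. In scaled terms MEFs had 0.44, Nanog 0.21 to 0.43 and NanogN70 up to 0.38, all below the ESC mean of 1.53 ± 0.24 (SD, n = 3). The paths did not separate (difference −0.012, exact permutation p = 0.891), and the sign of the difference changed with the scaling. The day 3 value of 23 came from the library with the T lymphocyte and leukocyte promoter peaks, which also gave the only peak at +0.8 kb, in the coding exon. Whether what gave these marker peaks had a part in the day 3 value was not tested.

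The Utf1 promoter peak was at a different place in MEFs and in ESCs, a pattern looked at after the values were seen. The MEF summit lay 323 bp downstream of the strongest ESC summit, inside the gene, and ESC summits lay within 98 bp of that position. Counting summits within 100 bp of the ESC position, Nanog had one on 4 of 8 days (days 3, 5, 7 and 10, with pileups of 5 to 8). NanogN70 had one on 5 of 8 days (days 3, 7, 8, 10 and 12, with pileups of 6 to 23). The pileup of 23 was that of NanogN70 day 3, the library with the T lymphocyte and leukocyte promoter peaks, and the next highest was 13. Without that library the paths would have equal counts. A summit more than 200 bp downstream was present on 7 Nanog and 5 NanogN70 days. On NanogN70 day 12 the only peak had its summit 2 bp from the ESC summit, with a pileup of 13, and on Nanog day 12 the only peak had its summit 304 bp downstream, with a pileup of 5. With 1 library per day, this difference in position on day 12 has no replicate.

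The Utf1 +1.9 kb element (chr7:139945524-139945908), the window with the variant octamer and the SOX core printed above, had pileups of 28, 38 and 33 in ESCs and no peak in MEFs or in any of the 16 time course libraries. It lies downstream of the gene. By the 2 kb rule it counts as a promoter element. The element at +8.3 kb, in an intron of Gm16201, had 21, 22 and 20 in ESCs and was likewise absent elsewhere. Neither ESC-only element of Utf1 was thus detected in a path, while its promoter element was open in 19 of the 20 libraries.

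The element at Utf1 +6.2 kb (chr7:139949527-139951029) spans the start of Gm16201 and had a peak in all 20 libraries, and it is singled out here after its values were seen. The pileups were 42 in MEFs, 39, 33 and 20 in ESCs, 25, 25, 25, 48, 39, 39, 15 and 14 on the Nanog days, and 26, 21, 55, 25, 28, 17, 10 and 18 on the NanogN70 days. As scaled values, those with NanogN70 were the lower ones on 8 of 8 days, with a mean of 0.82 against 1.18. As deposited, without scaling, Nanog was higher on 5 days and NanogN70 on 3, of which one was day 3, from the library with the T lymphocyte and leukocyte promoter peaks. The day 3 summit lay 431 bp from the ESC summit, and what gave those marker peaks was not tested for a part in this value. The scaled difference of −0.35 gave p = 0.00781 in the exact permutation test, the smallest p that 8 sign flips allow, and an adjusted p of 0.83. The element was no lower in MEFs (scaled 1.08) than in ESCs (0.93 ± 0.27, SD, n = 3).

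Taking the 15 elements that had a peak in at least 1 time course library, the exact permutation test called 0 at an adjusted p under 0.05, with 0 for days and 1 for the scaled pileup at an unadjusted p under 0.05. It also called 0 of all 233354 regions after adjustment (1487 and 10048 at an unadjusted p under 0.05). The design nearly fixes this, because at least 36462 regions would have to reach the smallest possible p for any to pass. Of the 15 elements, 3 differed on enough days for even an unadjusted p under 0.05 in scaled pileup. The counts of 0 are therefore no sign that the paths were alike. limma on log2(scaled pileup + 0.1), with path and day as terms, called 579 regions (186 higher with NanogN70) and 0 of the 15 elements. The median log2 difference over all regions in that fit was 0.14. Against this shift the largest log2 differences at the loci were 1.05 at Dppa5a +3.2 kb (limma adjusted p = 0.218), 1.00 at Dppa5a −6.9 kb (0.341), 0.71 at Utf1 +7.5 kb (0.505) and −0.48 at Utf1 +6.2 kb (0.192). The Utf1 +7.5 kb element, in an intron of Gm16201, had pileups of 20 and 7 on NanogN70 days 0 and 1 and no other peak, in ESCs or elsewhere. Of the elements without ESC-only status, Dppa5a −5.1 kb (2 Nanog days and 1 NanogN70 day) and Utf1 −3.0 kb (1 and 0) went the other way, as did Dppa5a +10.0 kb and the Utf1 promoter (8 and 7 each). With 1 library per day and path and no replicate inductions named, the p-values describe these libraries alone.

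For context, promoters of 22 other genes of the pluripotency network were scored in the same way, with a peak within 2 kb of any start. Of these, 12 had a MEF peak and 10 were ESC-only, and all 10 of the latter had a peak on NanogN70 day 12 (28.4% of all 1193 genes with ESC-only promoters) while 2, Gdf3 and Prdm14, had one on Nanog day 12 (14.3%). On at least 1 Nanog day, 6 of the 10 were open, against 41.7% of all such genes. The number of NanogN70 days exceeded that of Nanog days by 2 or more at 6 of the 10 (21.1% of all such genes) and the reverse held at 0 (2.77%), with a median difference of 2 days against 0. The highest numbers were those of Gdf3, a TGF-β family ligand, with 6 NanogN70 and 7 Nanog days, and of Lin28a, an RNA-binding protein that blocks let-7 maturation, with 6 and 1. The lowest were those of Tcl1, an AKT cofactor, with 1 and 0, and of Prdm14, a repressor of FGF signaling and DNA methylation, with 1 and 1. By the same measure Zfp42, Dppa2 and Dppa5a each had 1 NanogN70 day, on day 12, and 0 Nanog days, and Dppa4 had 0 and 0, although Dppa2 also had the MEF peak given above. Utf1, with a MEF peak, had 7 and 8. In number of days, Zfp42, Dppa2, Dppa5a and Dppa4 thus stood with Tcl1 and Prdm14 at the low end of the list.

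**Figure D5:**
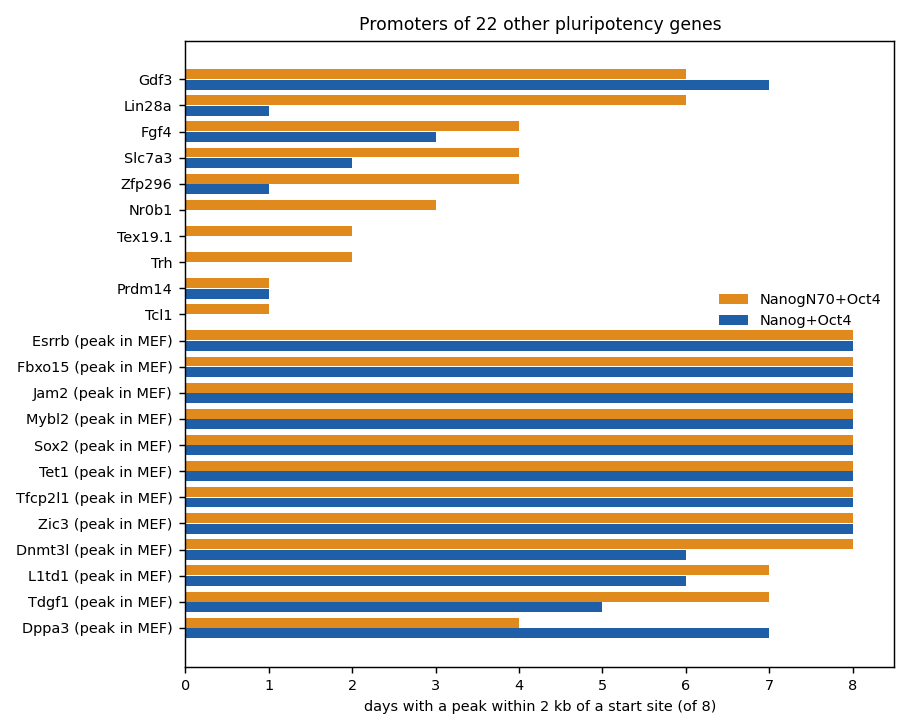
Number of days, of 8, with a peak within 2 kb of a start site (x axis) for 22 other pluripotency genes (y axis), with NanogN70+Oct4 in orange and Nanog+Oct4 in blue. The 10 genes without a MEF peak are at the top, and at 6 of them NanogN70 had at least 2 more days than Nanog.

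Only the Utf1 promoter had peaks in enough libraries to look for genes with a like pattern, since those of Dppa5a, Dppa2, Dppa4 and Zfp42 had a peak in 3 to 5 libraries. The 5 protein coding genes with the highest Pearson correlation of log2(scaled promoter pileup + 0.1) with Utf1 over the 20 libraries were Rbpms (r = 0.938), Sec14l2 (0.922), Slc2a3 (0.911), Prorsd1 (0.889) and Cd38 (0.881). All 20 libraries share the scaling, and genes picked as the highest of the genome carry no test. Each of the 5 had a MEF peak and peaks on 7 or 8 days in both paths.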

How the data were processed

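The authors trimmed reads with Trim Galore 0.6.4, aligned them with Bowtie2 2.4.5 to mm10, removed repetitive, mitochondrial and low-quality reads with SAMtools 1.16.1 and called peaks in each library separately with MACS 1.4.2, keeping duplicates and with no control named. The score the authors deposited for each peak is the −log10 p-value of MACS multiplied by 10. The signal in the deposited summit lists is the tag coverage at the summit and is not scaled to depth. Depth is unknown, and a library sequenced further yields peaks at weaker sites.

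Groups follow the sample titles (the source field of the ESC samples names MEFs). Each sample has its own files, and the number of columns of other samples was 0. Peaks were merged and elements assigned as the report describes, with GENCODE M21. Every ESC-only and promoter element was considered, and other elements singly only where the paths differed by at least 4 days, where the ESC pileup was the highest of the locus, or where said. The paths were compared by exact sign-flip permutation over 8 days, two-sided, with Benjamini-Hochberg adjustment over all regions tested, and with limma 3.58.1 in R 4.3.3 as an alternative. Other alternatives changed the minimum score, overlap, window, scaling, number of peaks, and libraries used. Scripts used Python 3.11.15, numpy 2.4.6, pandas 2.3.3, scipy 1.17.1 and matplotlib 3.10.9, and the test was checked on simulated data. Peaks ended within the reference length on each of 21 chromosomes. The genes, lists, thresholds and tests were chosen with earlier results of these data known.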

Additional observations from a re-analysis of the deposited data

How the results depend on the processing

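Replicate numbers are given for the ESC libraries alone, so no fit with a replicate block was made, and the paths were paired by day. Most recomputations did not reverse a path difference, but a difference that fell to 0 did not count as reversed. Those at Dppa5a −1.4 kb, Dppa2 −1.4 kb and Zfp42 +1.1 kb fell to 0 at a score of at least 100. With equal peak numbers they did so too. For the sign-flip test the design nearly fixed the side of the threshold. That it was kept therefore does not show how firm the results are. The 23 ESC-only elements became 13 when each library was cut to its 44126 best-scoring peaks and 20 to 22 with 1 ESC library left out. Of these 13, 9 had a peak in no time course library, 4 had one on 1 or more NanogN70 days, and 1 promoter element did. With a score of at least 100, 4 elements and 1 promoter element had a peak on 1 or more NanogN70 days. Leaving out 1 day or ESC library gave 3 to 7 elements and 0 to 4 promoter elements on NanogN70 days, 0 to 1 on Nanog days (0 without day 7), and 14 to 20 in no library. Merging at an overlap of at least 100 bp gave 2 elements on Nanog days, and a window of 5 kb left 1 element with at least 2 more NanogN70 days. No element passed the threshold under any alternative with an adjusted p.

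The sign of the path difference (NanogN70 minus Nanog) changed at Dppa5a +10.0 kb and at the Utf1 promoter. With a score of at least 100, it was 2 days at both, and 0.068 and 0.070 in scaled pileup. With these equal peak numbers the scaled values were 0.0026 and 0.0092. Leaving out 1 day gave −0.067 to 0.0059 at Dppa5a and −0.029 to 0.031 at Utf1. Without scaling, the differences were 1 and 2.75 tags, and scaling to the median of all summits gave 0.12 at Utf1. The cause was not tested. Among the days, leaving out day 0 turned the sign at Dppa5a (0.0059) and leaving out day 1 turned it at Utf1 (0.031). Pileups of 5 to 10 at most of these elements limit what the time course can show.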
